A study of Mus musculus with 26 samples.

Results

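The genes described here are 10 markers of formative and primed pluripotency, *Otx2*, *Pou3f1*, *Fgf5*, *Zic2*, *Zic5*, *Sall2*, *Foxd3*, *Sox3*, *Utf1* and *Cdh2*, which were taken by symbol from a table of 24409 genes. All 10 were found, and each was read in wild-type (WT) and ZFP57 KO mouse embryonic stem (ES) cells, library by library. ZFP57 is a KRAB zinc finger protein that binds a methylated hexanucleotide at imprinted regions, and the study places most of its sites in ES cells on transposable elements. The comparison asked how gene expression differed in cells that lack ZFP57. All lines were male and on the C57BL/6J background, and came from morulae collected at E2.5 that were grown in KSOM with 2i, the inhibitors PD0325901 (Erk pathway) and CHIR99021 (Gsk3). They were kept in N2B27 with 2i and LIF for at most 15 passages, with WT and KO matched for passage number. The 3 WT libraries carry the genotype label WT, and the 2 KO libraries the label ZFP57 KO (zygotic), a homozygous disruption of the coding exons for the KRAB domain and the zinc fingers. Zygotic means that the deletion did not extend to the mother's egg. The labels number the libraries by ES cell line, with 1 library a line, so p-values measure the spread between the lines so numbered.

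Pluripotent cells of the mouse pass from a naive state, held in culture by 2i and LIF, through a formative state to a primed state like that of the epiblast after implantation. On leaving the naive state they switch on the ligand gene *Fgf5* and the transcription factor genes *Otx2* and *Pou3f1*, while naive factors such as *Klf4* and *Dppa3* decline. Erk signaling drives this exit, and a block of it in 2i is known to keep *Fgf5*, *Otx2* and *Pou3f1* low.

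Expression was measured by paired-end sequencing (150 bp) of RNA after removal of rRNA, and is given as FPKM, fragments scaled by transcript length and library size, on which levels of different genes can be compared. The value of 1 fragment on 1 kb, read from short genes, lay between 0.017 and 0.0198 FPKM, which implies about 50500000 to 58900000 counted fragments per library, and 17504 to 18138 genes were above 0. *Zfp57* itself was at 75.94, 72.34 and 70.55 FPKM in WT 1, 2 and 3 and at 19.00 and 21.62 FPKM in KO 1 and 2. Its log2 difference of −1.84 (SE 0.06, adjusted p = 2.3e-04) had the direction of the genotype labels, with RNA from the gene still counted in both KO libraries. A mean of 0.1 FPKM or more was reached by 14612 genes, and 6002 of them passed the test between KO and WT (limma, Benjamini-Hochberg adjusted p under 0.05). The median log2 difference over the 14612 was −0.01. Changes below are log2 differences of FPKM + 0.1, KO minus WT, with the standard error (SE) of the fit. They understate the change of genes near 0.1 FPKM.

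The RNA of the 10 markers did not move in a single direction in ZFP57 KO ES cells. *Fgf5*, *Utf1* and *Cdh2* rose, *Pou3f1*, *Sall2* and *Zic5* fell, and *Otx2*, *Sox3*, *Zic2* and *Foxd3* did not pass the test. The 6 that passed were 60% of the 10, where 41.1% of all tested genes passed. The 3 that rose stand beside 18.8% of all tested genes called higher, and the 3 that fell beside 22.3% called lower. Only *Fgf5* of the 10 also had a log2 difference of at least 1 in size, as 8.02% of tested genes did. In 9 of the 10 both KO libraries lay beyond all 3 WT libraries, as they did for 63.4% of tested genes. Without WT 1, WT 3, KO 1 or KO 2 the number that passed was 3, without WT 2 it was 5, and none of the 10 changed direction in any alternative. The median log2 difference of the 10 was 0.17 and their median size of difference 0.51, against −0.01 and 0.25 over all tested genes. All 10 entered the test, but *Otx2* and *Fgf5* had WT means below 0.1 FPKM and entered through their KO values. These are bulk measurements, in which fewer cells with a transcript and less transcript per cell cannot be told apart.

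The promoters of 4 markers that changed are shown first, *Fgf5* and *Utf1* of those that rose and *Zic5* and *Sall2* of those that fell, to let their sequence be set beside the sites that ZFP57 binds. RefSeq windows on GRCm38.p6 (mm10) were given for 6 of the 10, with 10 windows in all (4 for *Otx2*, 2 for *Sall2*, and 1 each for *Fgf5*, *Zic5*, *Foxd3* and *Utf1*). Each line holds the 250 bases before a gene start, 5′ to 3′ on the strand of the gene, with CpG dinucleotides in capitals. They lie at chr5:98253934-98254183 (*Fgf5*, plus strand), chr7:139943606-139943855 (*Utf1*, plus), chr14:122465659-122465908 (*Zic5*, minus), and chr14:52328671-52328920 and chr14:52316324-52316573 (*Sall2*, minus).
Fgf5: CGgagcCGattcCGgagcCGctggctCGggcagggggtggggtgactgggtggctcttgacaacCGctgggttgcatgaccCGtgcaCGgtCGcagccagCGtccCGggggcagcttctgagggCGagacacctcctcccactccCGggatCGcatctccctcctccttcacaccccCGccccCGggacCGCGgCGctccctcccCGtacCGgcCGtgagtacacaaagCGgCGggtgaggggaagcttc
Utf1: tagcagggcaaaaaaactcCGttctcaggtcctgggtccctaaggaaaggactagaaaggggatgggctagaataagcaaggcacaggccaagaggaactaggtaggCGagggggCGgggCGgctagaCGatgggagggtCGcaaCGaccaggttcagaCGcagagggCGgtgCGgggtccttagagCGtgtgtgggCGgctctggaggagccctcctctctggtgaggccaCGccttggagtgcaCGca
Zic5: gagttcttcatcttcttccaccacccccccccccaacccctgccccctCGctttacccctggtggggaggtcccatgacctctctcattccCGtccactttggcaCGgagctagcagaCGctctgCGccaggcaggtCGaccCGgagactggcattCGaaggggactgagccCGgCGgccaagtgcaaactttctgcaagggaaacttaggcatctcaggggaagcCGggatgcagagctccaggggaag
Sall2 distal start: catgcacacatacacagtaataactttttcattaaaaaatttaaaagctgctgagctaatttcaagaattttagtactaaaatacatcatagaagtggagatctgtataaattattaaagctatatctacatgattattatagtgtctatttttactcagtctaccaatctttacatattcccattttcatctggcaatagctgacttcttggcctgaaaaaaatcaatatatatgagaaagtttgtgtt
Sall2 proximal start: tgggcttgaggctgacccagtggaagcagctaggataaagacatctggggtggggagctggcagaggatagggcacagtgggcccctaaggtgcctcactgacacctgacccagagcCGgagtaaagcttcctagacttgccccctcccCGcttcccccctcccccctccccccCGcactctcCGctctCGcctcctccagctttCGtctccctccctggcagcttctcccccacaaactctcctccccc
The *Fgf5* stretch holds 24 CpG in 70.8% GC and that of *Utf1* 14 CpG in 61.6% GC. *Zic5* has 11 CpG in 62.4% GC. The *Sall2* starts differ from each other, with 0 CpG in 28% GC at the distal start and 6 CpG in 64.4% GC at the proximal start. Over the full windows of 300 bp, the CpG counts were 29 for *Fgf5*, 25 for *Foxd3*, 17 for *Utf1*, 15 for *Zic5*, 1 and 10 for *Sall2*, and 6, 8, 16 and 11 for *Otx2*, beside a median of 7 for all 32851 windows in the table.

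ZFP57 recognizes the hexanucleotide TGCCGC when its CpG is methylated. Searched on both strands (TGCCGC or GCGGCA), it was in 0 of the 10 marker windows, and in 11.6% of all 32851 windows. A search of letters says nothing of binding, so the deposited list of 1423 ZFP57 peaks from the C57BL/6J cells was set beside the genes. No marker had a peak within 20 kb of its span or within 100 kb, where 4.88% and 15.9% of the 14565 placed tested genes had one. The nearest peak lay 353 kb from *Otx2*, 786 kb from *Sall2* and between 1070 and 6872 kb from the other 8, with a median of 1229 kb against 539 kb for the tested genes. Among the markers that changed, *Fgf5* was 1957 kb, *Utf1* 2270 kb, *Pou3f1* 2649 kb, *Cdh2* 1233 kb and *Zic5* 1070 kb from a peak. *Zic2* and *Zic5* shared 1 nearest peak, so there were 9 distinct peaks, of which 4 were also in the list of 743 peaks from hybrid cells.

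The peaks nearest to *Otx2*, at chr14:48303897-48304138, and to *Fgf5*, at chr5:96296995-96297208, are printed to show what a bound site far from the markers looks like. Both are given on the plus strand of GRCm38.p6, with the hexanucleotide in capitals.
Peak nearest to Otx2: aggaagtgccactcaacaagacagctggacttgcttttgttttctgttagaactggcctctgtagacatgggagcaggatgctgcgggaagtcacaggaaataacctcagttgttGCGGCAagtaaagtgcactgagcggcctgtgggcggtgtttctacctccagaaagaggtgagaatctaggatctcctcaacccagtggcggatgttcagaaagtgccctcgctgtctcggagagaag
Peak nearest to Fgf5: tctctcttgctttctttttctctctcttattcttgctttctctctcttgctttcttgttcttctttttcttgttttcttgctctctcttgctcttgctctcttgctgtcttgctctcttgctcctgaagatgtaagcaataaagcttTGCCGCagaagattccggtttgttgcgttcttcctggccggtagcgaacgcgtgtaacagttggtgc
Each of the 9 nearest peaks held 1 or 2 copies of the hexanucleotide on either strand. In 5 of the 9, at least 50% of the bases are soft-masked as repeats, with 95.8% in the peak nearest to *Fgf5* and 10.3% in that nearest to *Otx2*.

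*Fgf5*, a secreted growth factor that marks the epiblast around implantation, had the largest difference of the 10. It was at 0.06, 0.09 and 0.05 FPKM in WT 1, 2 and 3, and at 0.44 and 0.35 FPKM in KO 1 and 2. Both KO libraries were above every WT library, with means of 0.067 ± 0.021 (SD, n = 3) and 0.395 ± 0.064 (SD, n = 2), a ratio of 5.93. The log2 difference was 1.57 (SE 0.22, 95% interval 1.04 to 2.1, adjusted p = 0.0027). It passed in all 13 alternative analyses that could test it and set no limit on size, and its size depended on the constant added to low values, from 0.39 with 1 FPKM to 2.43 with 0.01 FPKM. The WT values rest on an estimated 6.32 to 13.3 fragments and the KO values on 48.3 and 57.6, so the level remained low in both genotypes. *Fgf5* lies at chr5:98254184-98277033 on the plus strand, with 3 exons. Its relative *Fgf4*, which ES cells secrete to drive Erk signaling, was far more abundant, at 60.99, 55.95 and 59.72 FPKM in WT against 51.49 and 52.38 FPKM in KO, and fell by 0.18 on the log2 scale (SE 0.05, adjusted p = 0.024).

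*Otx2*, the homeodomain factor that directs the exit from the naive state, was at 0.10, 0.09 and 0.07 FPKM in WT and at 0.17 and 0.16 FPKM in KO. Both KO values were above all WT values, a ratio of means of 1.90, but the difference of 0.51 did not pass the test (SE 0.21, 95% interval 0.01 to 1.01, adjusted p = 0.096). It passed without a filter on low values (adjusted p = 0.039) and with a prior variance held constant over expression levels (adjusted p = 0.015). The values correspond to an estimated 9.52 to 14.8 fragments in WT and 23.8 to 23.9 in KO. The gene lies at chr14:48656781-48667644 on the minus strand. The related *Otx1* was at 0.24 to 0.33 FPKM in WT and 0.27 and 0.34 FPKM in KO, with a difference of 0.04 (SE 0.20, adjusted p = 0.88).

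*Pou3f1* (Oct6), a POU factor of the formative state that acts with *Otx2*, went the other way from *Fgf5*. It was at 0.41, 0.32 and 0.40 FPKM in WT and at 0.17 and 0.19 FPKM in KO, with no overlap and a WT to KO ratio of 2.09. The log2 difference was −0.76 (SE 0.18, 95% interval −1.21 to −0.32, adjusted p = 0.019). Leaving out WT 1, WT 3, KO 1 or KO 2 raised the adjusted p to 0.063, 0.063, 0.069 and 0.055, with differences of −0.71, −0.73, −0.71 and −0.81. The gene, at chr4:124657646-124660655 on the plus strand, has 1 exon. Its relative *Pou3f3* was at 0.09 to 0.14 FPKM in all 5 libraries.

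**Figure D1:**
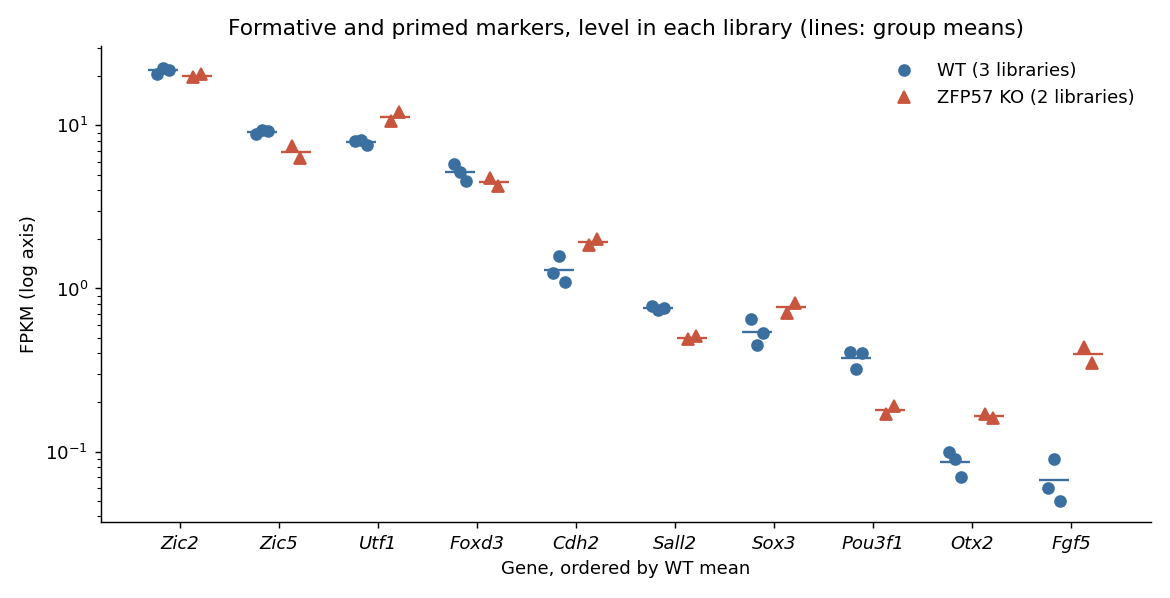
The level of each marker in each library, in FPKM on a log axis, with genes ordered by their WT mean; circles are the 3 WT libraries, triangles the 2 ZFP57 KO libraries and lines the group means. The markers span from *Zic2* at about 20 FPKM to *Otx2* and *Fgf5* below 0.5 FPKM, and only for *Foxd3* do the symbols of both groups overlap.

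The zinc finger genes *Zic2* and *Zic5* lie head to head on chromosome 14, 9726 bp apart, at chr14:122475384-122480328 (plus strand) and chr14:122459160-122465658 (minus strand). *Zic2*, a factor that binds enhancers in ES and primed cells, was the most abundant of the 10, at 20.80, 22.64 and 21.77 FPKM in WT and 19.82 and 20.65 FPKM in KO. Both KO libraries were below all WT libraries by a small margin, and the difference of −0.10 did not pass (SE 0.05, 95% interval −0.22 to 0.02, adjusted p = 0.15). With upper-quartile scaling it was −0.16 and passed (adjusted p = 0.045). *Zic5* was at 8.80, 9.43 and 9.25 FPKM in WT and at 7.48 and 6.35 FPKM in KO, again with no overlap. It fell by 0.40 on the log2 scale (SE 0.08, 95% interval −0.60 to −0.21, adjusted p = 0.0096), and the adjusted p was 0.061 without a filter on low values.

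*Sall2*, a spalt-like zinc finger transcription factor, was at 0.78, 0.74 and 0.76 FPKM in WT and at 0.49 and 0.51 FPKM in KO. The groups did not overlap, and the WT mean was 1.52 times the KO mean. The log2 difference of −0.52 (SE 0.13, 95% interval −0.84 to −0.20, adjusted p = 0.022) was lost on leaving out any 1 of WT 1, WT 2, WT 3, KO 1 and KO 2, with adjusted p of 0.07, 0.053, 0.066, 0.071 and 0.062 and differences from −0.54 to −0.50. The gene lies at chr14:52311177-52328670 on the minus strand. Of its relatives, *Sall4*, a factor of the core network, fell by 0.19 (SE 0.04, adjusted p = 0.0088), from 53.46 to 53.84 FPKM in WT to 45.92 and 48.17 FPKM in KO. *Sall3* rose by 0.60 (SE 0.11, adjusted p = 0.0086) and *Sall1* by 0.28 (SE 0.09, adjusted p = 0.042).

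*Foxd3*, a forkhead factor that restrains differentiation and is needed across naive and primed states, was at 5.83, 5.19 and 4.59 FPKM in WT and 4.78 and 4.24 FPKM in KO. It was the only marker of the 10 with overlapping groups, and the difference of −0.20 did not pass (SE 0.11, 95% interval −0.47 to 0.08, adjusted p = 0.21), nor in any of 14 alternatives. The gene, at chr4:99656299-99658671 on the plus strand, has 1 exon. Its relative *Foxd1*, a factor of kidney stroma and forebrain, rose from 0.12, 0.10 and 0.09 FPKM to 0.68 and 2.13 FPKM, a log2 difference of 2.70 (SE 0.43, adjusted p = 0.0043), with KO 2 well above KO 1.

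*Sox3*, a SoxB1 factor of the primed epiblast and early neural cells encoded on the X chromosome (chrX:60891366-60893430, minus strand, 1 exon), was at 0.65, 0.45 and 0.53 FPKM in WT. Both KO libraries were higher, at 0.71 and 0.82 FPKM, with a ratio of means of 1.41. The difference of 0.44 did not pass (SE 0.18, 95% interval −0.01 to 0.88, adjusted p = 0.1), nor in any of 13 alternatives. *Sox2*, its relative in the core network, was at 81.57 to 85.17 FPKM in WT and at 78.24 and 84.92 FPKM in KO, a difference of −0.04 (SE 0.05, adjusted p = 0.52). *Sox1*, a marker of neural precursors, rose from 0.08, 0.10 and 0.08 FPKM to 0.47 and 0.67 FPKM, a difference of 1.83 (SE 0.21, adjusted p = 0.0015), and with a WT mean below 0.1 FPKM it entered the test through its KO values.

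*Utf1*, which encodes a chromatin-associated protein of pluripotent cells, was at 8.04, 8.11 and 7.54 FPKM in WT and at 10.58 and 12.06 FPKM in KO. Both KO libraries were above all WT libraries, with means of 7.90 ± 0.31 (SD, n = 3) and 11.3 ± 1.05 (SD, n = 2). It rose by 0.51 on the log2 scale (SE 0.07, 95% interval 0.34 to 0.69, adjusted p = 0.0028), a ratio of means of 1.43, and passed in all 14 alternatives that set no limit on the size of the difference. Its values rest on an estimated 442 to 772 fragments per library, the firmest base among the markers that rose. The gene has 2 exons and lies at chr7:139943856-139945112 on the plus strand.

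*Cdh2*, which encodes N-cadherin, the adhesion molecule that replaces E-cadherin as epiblast cells mature, was at 1.24, 1.59 and 1.09 FPKM in WT and at 1.85 and 2.00 FPKM in KO. The groups did not overlap, with a ratio of means of 1.47. The difference of 0.54 passed narrowly (SE 0.17, 95% interval 0.14 to 0.94, adjusted p = 0.043). The call held in 4 of 14 alternatives and was lost in 10, with adjusted p up to 0.17. Leaving out WT 1, WT 3, KO 1 or KO 2 gave adjusted p of 0.11, 0.1, 0.11 and 0.17, with differences of 0.51, 0.43, 0.59 and 0.49. *Cdh2* has 16 exons at chr18:16588877-16809246 on the minus strand. *Cdh1*, the E-cadherin gene, was near 100 FPKM in WT (99.94 to 100.84) and at 99.20 and 91.70 FPKM in KO, a difference of −0.07 (SE 0.04, adjusted p = 0.22). *Cdh3*, the P-cadherin gene, fell from 3.42, 3.89 and 4.51 FPKM to 1.25 and 0.73 FPKM (log2 difference −1.92, SE 0.22, adjusted p = 0.0015).

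**Figure D2:**
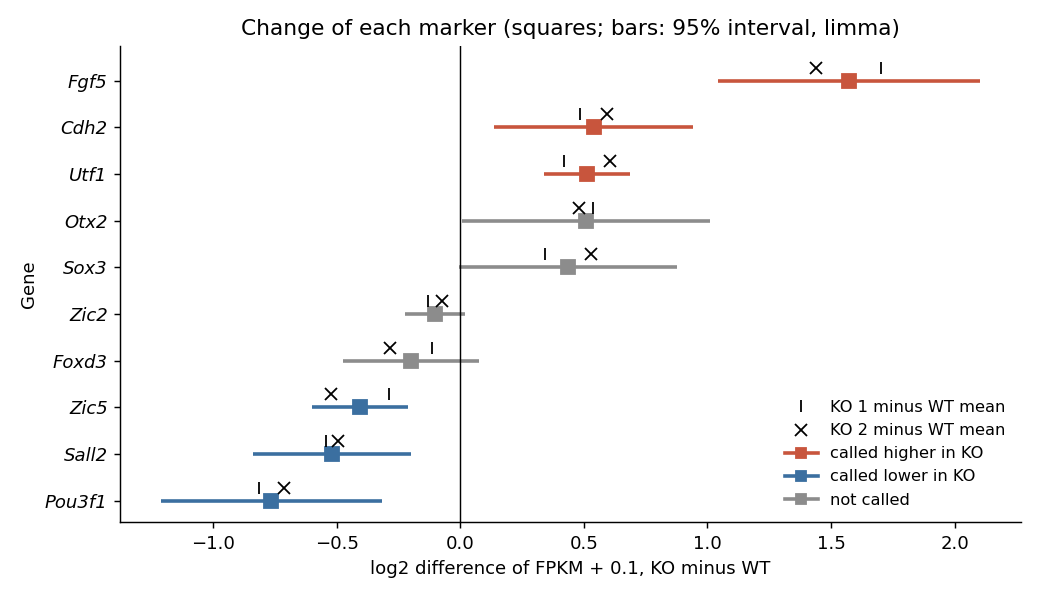
The log2 difference of FPKM + 0.1 between KO and WT for each marker (squares), with its 95% interval from limma (bars) and the difference of each KO library from the WT mean (black marks). *Fgf5* stands apart at 1.57, the intervals of 6 markers that passed and of *Otx2* leave out 0, and both KO libraries fall on the same side of 0 for every marker.

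Of 22 relatives listed beside the markers, 13 could be tested, and 6 rose and 3 fell, or 69.2% against 41.1% of all tested genes, and 4 passed without a filter on low values. Among them *Cdh4*, a cadherin gene, rose by 1.00 (SE 0.23, adjusted p = 0.015). Of the relatives given here, some that passed moved opposite to their marker: *Fgf4* to *Fgf5*, *Cdh3* to *Cdh2*, and *Sall1* and *Sall3* to *Sall2*. Others moved with it, as *Cdh4* rose like *Cdh2* and *Sall4* fell like *Sall2*.

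The order of levels was kept only in part between genotypes. In WT it ran *Zic2*, *Zic5*, *Utf1*, *Foxd3*, *Cdh2*, *Sall2*, *Sox3*, *Pou3f1*, *Otx2* and *Fgf5*, and the ranges of neighbours in this order overlapped only for *Otx2* and *Fgf5*. In KO, *Utf1* stood above *Zic5*, *Sox3* above *Sall2*, and *Fgf5* above *Pou3f1* and *Otx2*, which overlapped each other. The WT mean of *Zic2* was above that of 91.8% of all genes in the table and that of *Fgf5* above 37.2%. The summed level of the 10 was 46.05 to 48.65 FPKM in WT and 46.49 to 47.33 FPKM in KO.

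The other genes of this transition went both ways too. Of 16 further formative and primed genes, 4 rose, 6 fell and 6 did not pass, with a median log2 difference of −0.25. The 10 that passed were 62.5%, where 41.1% of all tested genes passed. *Lin28a*, an inhibitor of let-7 maturation, went from 18.46, 20.52 and 18.07 FPKM in WT to 36.81 and 33.67 FPKM in KO, a rise of 0.89 (SE 0.07, adjusted p = 5.7e-04). *Sox11*, a SoxC factor, rose by 0.88 (adjusted p = 6.4e-04), and *Nkx1-2*, a homeobox gene, by 0.87 (adjusted p = 0.0022). *Lef1*, the Wnt effector, fell from 5.79, 7.91 and 8.21 FPKM to 2.60 and 1.47 FPKM (log2 difference −1.83, SE 0.25, adjusted p = 0.0027). *Dnmt3a*, a de novo DNA methyltransferase, fell from 10.42, 9.21 and 10.99 FPKM to 3.25 and 2.84 FPKM (−1.71, SE 0.10, adjusted p = 3.3e-04). *Grhl2*, an epithelial factor, fell by 1.00 on the log2 scale (adjusted p = 0.012). *Dnmt3b*, the other de novo methyltransferase, was at 18.61 to 21.87 FPKM in WT and 19.00 and 14.47 FPKM in KO (−0.26, adjusted p = 0.14).

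Naive genes were also split. Of 14, 6 rose and 4 fell (71.4% passed, against 41.1% of all tested genes), with a median of 0.12. Without a filter on low values, 6 of the 14 passed. *Klf4* rose by 0.74 (SE 0.10, adjusted p = 0.0025), from 25.88 to 30.14 FPKM in WT to 42.33 and 51.66 FPKM in KO. *Tfcp2l1* rose by 0.60 (adjusted p = 3.6e-04) and *Tbx3* by 0.58 (adjusted p = 0.013), all transcription factors of the naive network. *Dppa3*, which guards DNA methylation in the zygote, fell from 24.21, 35.55 and 36.97 FPKM to 9.04 and 4.43 FPKM (log2 difference −2.30, SE 0.32, adjusted p = 0.0027). The factor genes *Prdm14* (−0.43, adjusted p = 0.0034) and *Klf2* (−0.28, adjusted p = 0.014) also fell. The summed level of the 14 was 707 to 728 FPKM in WT and 773 to 821 FPKM in KO. Of 4 core genes, *Pou5f1*, which encodes Oct4, rose by 0.27 (SE 0.06, adjusted p = 0.013), *Sall4* fell as given, and *Sox2* and *Tcf7l1* did not pass.

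Targets of Erk signaling, the pathway that PD0325901 blocks in 2i, had called genes on 1 side only. Of 12 listed, 11 could be tested, 6 rose and none fell, with a median of 0.42. Those 6 were 54.5%, where 41.1% of all tested genes passed in either direction and 18.8% were called higher. *Spry4*, a feedback inhibitor, was at 0.09, 0.19 and 0.08 FPKM in WT and 2.97 and 2.82 FPKM in KO, a log2 difference of 3.80 (SE 0.24, adjusted p = 3.7e-04). *Etv4*, an ETS factor, rose by 3.12 (SE 0.23, adjusted p = 5.2e-04), from 0.61 to 1.10 FPKM to 7.94 and 8.97 FPKM. *Dusp6*, an Erk phosphatase, rose by 1.91 (SE 0.11, adjusted p = 3.3e-04). The 5 tested genes that did not pass included the immediate early genes *Egr1* (0.02, adjusted p = 0.94) and *Fos* (0.13, adjusted p = 0.64). *Egr1* was at 0.10 to 0.11 FPKM and *Fos* at 0.17 to 0.24 FPKM over all libraries, near the added constant. *Etv5*, at 49.81 to 52.34 FPKM in WT and 48.49 and 49.32 FPKM in KO, did not pass either (−0.07, adjusted p = 0.18). These values stand beside the rise of *Fgf5*, the fall of *Pou3f1* and an *Otx2* difference that did not pass. Whether the pathway takes part in any of these was not tested.

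**Figure D3:**
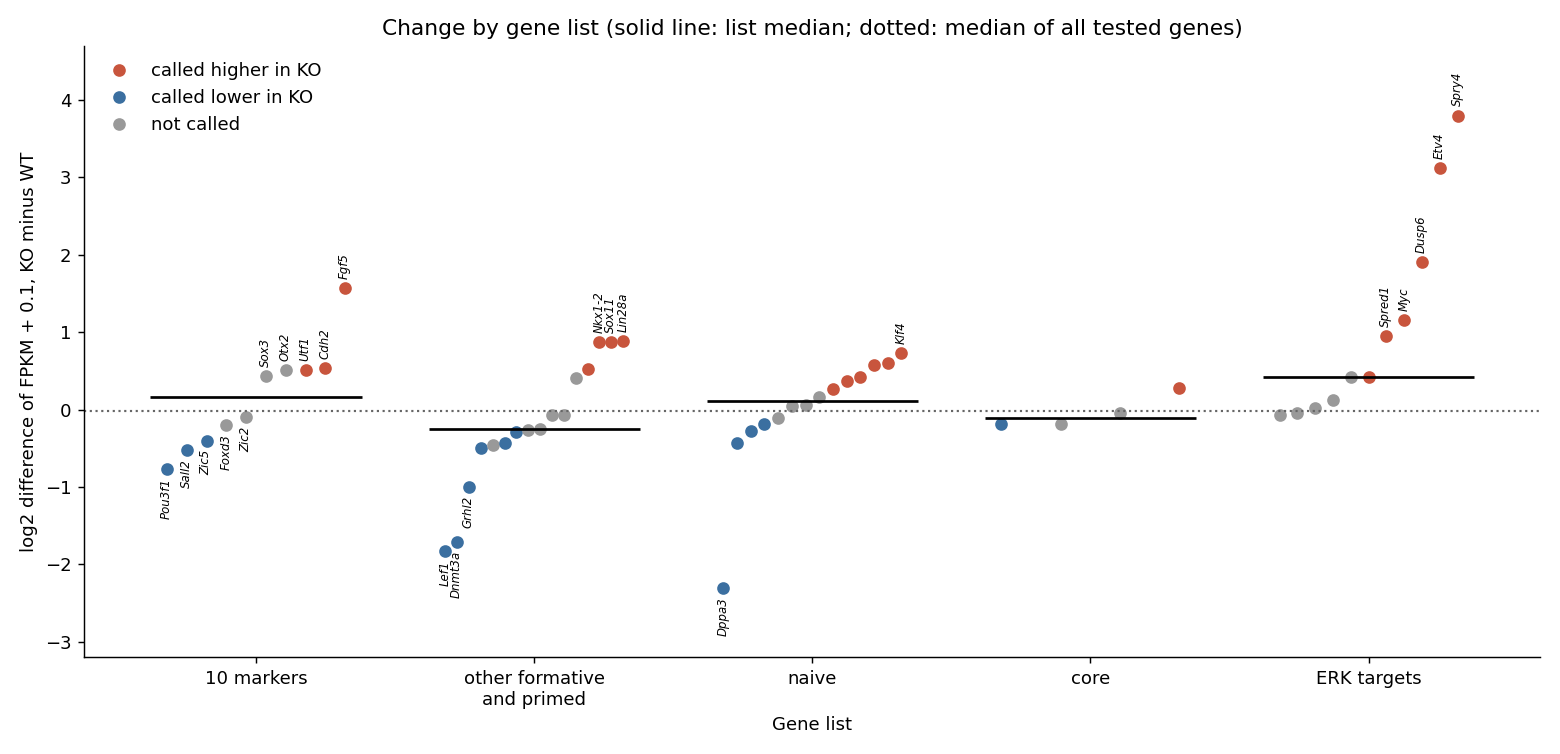
The log2 difference of FPKM + 0.1 between KO and WT for each tested gene of 5 lists, colored by call, with each list's median as a solid line and the median of all tested genes as a dotted line. The 10 markers, the other formative and primed genes and the naive genes spread to both sides of 0, while called Erk targets lie above 0 and reach 3.80 for *Spry4*.

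Markers of other cell types were low for the most part, and some moved with the genotype. The share that passed was 40% of the tested primitive endoderm genes, 50% of the mesendoderm genes, 50% of the trophoblast genes and 28.6% of the neural genes, beside 41.1% of all tested genes. Of 8 primitive endoderm genes 5 could be tested, and 2 rose, *Lama1* by 2.33 (SE 0.16, adjusted p = 4.1e-04) and *Sox7* by 1.82 (SE 0.28, adjusted p = 0.0041). The median over the 5 was −0.11. The summed level of the list was 1.80 to 2.14 FPKM in WT and 6.44 to 8.06 FPKM in KO. *Lama1* alone made up 1.03 to 1.21 FPKM of it in WT and 5.00 and 6.94 FPKM in KO. *Gata6* and *Sox17* were at or below 0.06 FPKM in all libraries. *Gata4*, *Pdgfra* and *Dab2* were at 0.08 to 0.29 FPKM and did not pass. Of 8 mesendoderm genes 4 could be tested, and 2 rose, *Eomes* by 2.00 (SE 0.19, adjusted p = 8.0e-04) and *T* by 1.02 (SE 0.27, adjusted p = 0.027). That sum was 2.07 to 2.45 FPKM in WT and 4.32 to 4.93 FPKM in KO. Of 10 neural genes 7 could be tested, with *Sox1* higher and *Nes*, an intermediate filament gene, lower by a log2 difference of −1.0 (SE 0.12, adjusted p = 0.0017), and sums of 15.51 to 18.23 and 11.91 to 16.83 FPKM. Of 6 tested trophoblast genes of 8, *Eomes* and *Krt8*, a keratin gene (1.5, adjusted p = 8.7e-04), rose and *Tfap2c* fell (−0.44, adjusted p = 0.012), with sums of 16.89 to 18.96 and 16.58 to 17.93 FPKM. Most of these sums was *Tfap2c*, at 15.12 to 17.12 FPKM in WT and 13.21 and 11.09 FPKM in KO. Of 3 tested fibroblast genes of 8, 0 passed in limma and 0 had an unadjusted p under 0.05. *Col3a1* was at 0 in every library and *Col1a1* at or below 0.10 FPKM, and the sums were 9.77 to 12.87 and 11.50 to 13.40 FPKM. Most of these sums was *Fbln1*, at 9.07 to 12.17 FPKM in WT and 12.86 and 10.55 FPKM in KO. Without KO 1 the test passed 4 neural genes and 1 fibroblast gene, and without WT 1, WT 3 or KO 1 it passed 1 mesendoderm gene. The part of such cells in the changes of *Fgf5*, *Utf1* and *Cdh2* was not tested.

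Genes near the markers were read to see whether a change reached beyond the marker itself. Within 250 kb of the 10 spans lay 67 other genes, none overlapping a marker, and 36 could be tested, of which 6 rose and 3 fell. The 9 that passed were 25% of those tested, a smaller share than the 41.1% of all tested genes. Beside *Utf1*, *Kndc1*, a gene 2316 bp upstream, rose from 0.11, 0.16 and 0.12 FPKM to 0.41 and 0.38 FPKM (1.11, SE 0.20, adjusted p = 0.0062). Near *Pou3f1*, which fell, *Fhl3*, a LIM domain gene 35309 bp away, rose from 2.64, 2.5 and 2.05 FPKM to 5.35 and 5.00 FPKM (1.09, SE 0.12, adjusted p = 0.0013). Near *Zic5*, the noncoding gene *Gm5089*, 8014 bp downstream, fell from 0.26, 0.21 and 0.28 FPKM to 0.11 and 0.06 FPKM, where its KO mean was below 0.1 FPKM (−0.93, SE 0.22, adjusted p = 0.019), and *Clybl*, a mitochondrial enzyme gene 56926 bp downstream, rose by 0.47 (SE 0.10, adjusted p = 0.012). The transcript *2610035F20Rik*, 185 bp from the start of *Zic2*, was at 0.34 to 0.61 FPKM in WT and 0.50 and 0.32 FPKM in KO (−0.16, adjusted p = 0.65). The library preparation keeps strand, but the strand setting of the counting is not stated, so close pairs may share reads. The median log2 difference of all tested genes was between −0.03 and 0.03 on chromosomes 4, 5, 7, 14, 18 and X, which carry the markers, and −0.47 on chromosome 11, which carries none. With the median of each chromosome subtracted, 2657 genes were higher and 2699 lower, beside 2749 and 3253 without.

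**Figure D4:**
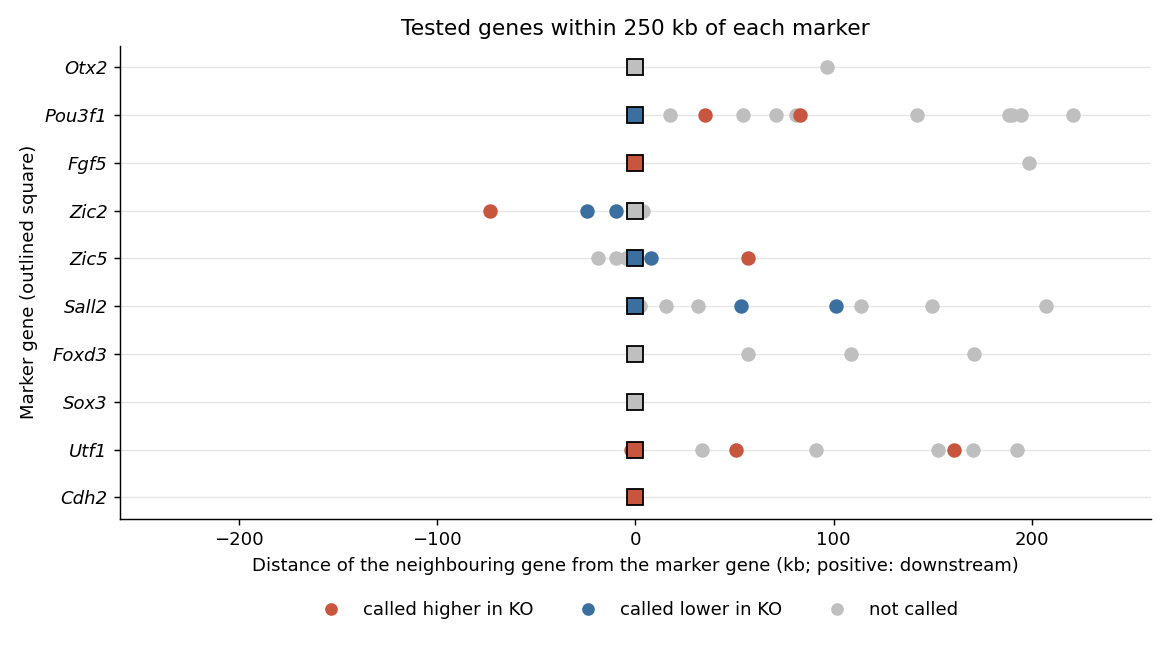
Tested genes within 250 kb of each marker, by distance in kb (positive values lie downstream of the marker) and colored by call, with the marker itself as an outlined square. Called neighbors stand beside *Pou3f1*, *Zic2*, *Zic5*, *Sall2* and *Utf1*, in both directions beside *Zic2* and *Zic5*, and *Sox3* and *Cdh2* have no tested neighbor in this range.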

How the data were processed

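RNA-seq of 3 WT and 2 ZFP57 KO ES cell lines was analyzed from a gene table in FPKM that the authors deposited, used as it stands. The submitters' processing notes name STAR 2.5.2, BWA 0.6.2, MACS2 2.1.0 and Trim Galore 0.2.7, and the build mm10. The counting, its strand setting and the annotation are not given in the sources used here. ZFP57 peaks were deposited by the authors as start and end positions without a score, for peaks found in at least 2 WT replicates.

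log2(FPKM + 0.1) of the 14612 genes whose mean reached 0.1 FPKM was fitted with limma 3.58.1 (eBayes with trend, R 4.3.3), KO against WT without covariates, with Benjamini-Hochberg adjustment over all of them (threshold 0.05). Intervals are unadjusted. With 3 against 2 libraries an exact permutation test has 10 splits and cannot go below 0.1 one-sided, so adjusted p-values rest on the limma model. The procedure was tested on simulated data. Depth was read from genes of at most 150 bp, where 91.5% to 95% of low values fell within 0.1 of a whole multiple of 1 fragment (20% by chance). Fragments per marker are estimates from RefSeq exon lengths on GRCm38.p6, where 24288 of 24409 genes were placed by symbol or synonym.

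The 10 markers and all gene lists (other formative and primed, naive, core, Erk target, neural, mesendoderm, primitive endoderm, trophoblast, fibroblast and family genes) were chosen with earlier results of these data known. Named genes were all markers, *Zfp57*, up to 3 called genes with the largest change each way per list, and relatives beside their marker. Values of 1 listed gene are not reported here. *Dnmt3b*, *Egr1*, *Fos*, *Etv5*, *Gata4*, *Gata6*, *Sox17*, *Pdgfra*, *Dab2*, *Col1a1*, *Col3a1*, *Fbln1*, *Tcf7l1* and the neighboring genes were named after their values were seen. Alternatives were the added constant (0.01 or 1 FPKM), the filter (none, or 1 FPKM), upper-quartile and median-ratio scaling, eBayes without trend, subtraction of chromosome medians, the replicate number as a block, each library left out in turn, and an added limit of 1 on the log2 difference.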

Additional observations from a re-analysis of the deposited data

How the results depend on the processing

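None of the 10 markers changed direction in any alternative, nor did *Zfp57*; the direction of other named genes was not followed across alternatives. *Fgf5* and *Utf1* passed in every alternative that tested them without a limit on the size of the difference, and *Zfp57* in all 14. *Zic5* passed in 12 of 14, *Pou3f1* in 8 of 13, *Sall2* in 7 of 13 and *Cdh2* in 4 of 14; the cause of the lost calls was not tested. Of the 10 markers, 6 passed, 3 higher and 3 lower. With a mean of at least 1 FPKM, 3 passed and 1 was lower, since *Otx2*, *Pou3f1*, *Fgf5*, *Sall2* and *Sox3* were no longer tested. Leaving out 1 library gave 3 to 5 markers, 2 to 3 higher and 1 to 2 lower. With a log2 difference of at least 1 in size, 1 marker passed, 1 higher and 0 lower.

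The replicate numbers shared by WT and KO are line numbers. Deviations from the group means gave r of −0.07 and −0.04 over genes for the 2 pairs of same-numbered libraries. The 2 KO libraries deviate from their own mean as mirror images, so both values rest on the same contrast and cannot settle a pairing. The labels name no shared litter or batch, so same-numbered libraries were not treated as pairs. The replicate block left 2 markers, *Fgf5* and *Utf1* (0 lower; adjusted p of 0.12 for *Pou3f1* and *Cdh2*, 0.14 for *Sall2* and 0.064 for *Zic5*), and 3012 of 6002 genes (1379 of 2749 higher, 1633 of 3253 lower), with 6 of 10 naive, 0 of 2 core, 1 of 2 mesendoderm and 4 of 9 family genes.

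Over all genes, the limit of 1 in log2 left 1172 (428 higher, 744 lower), and leaving out 1 library gave 4146 to 4831, with 1818 to 2175 higher (1818 without KO 2) and 2228 to 2656 lower. The same limit left 2 other formative and primed, 1 naive, 0 core, 1 neural and 4 family genes. Without a filter, 6 naive, 1 core and 4 family genes passed, and with a mean of at least 1 FPKM 1 neural, 1 mesendoderm and 1 primitive endoderm gene. Leaving out 1 library gave 2 to 4 neural (4 without KO 1), 1 to 2 mesendoderm and 0 to 1 fibroblast genes (1 without KO 1). Depth limits *Fgf5* and *Otx2* most, whose WT values rest on an estimated 6.32 to 14.8 fragments.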
